A study of Mus musculus with 2 samples.

Results

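Collagens are secreted or membrane-bound proteins of 3 intertwined chains, in which glycine recurs at fixed spacing so that the chains can wind into a triple helix. Fibroblasts of the dermis make most of the fibrillar collagens of skin, basal keratinocytes make the transmembrane collagen XVII and much of collagen VII, and several cell types contribute to the type IV network of basement membranes. Langerhans cells sit among the keratinocytes above that basement membrane and are not known as producers of collagen. The genes described here are the protein-coding genes whose symbol is Col, a number, the letter a and a number in GENCODE M21 (mouse, GRCm38). They number 44 of 55487 gene rows, and all 44 had counts in both libraries.

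RNA was sequenced from Langerhans cells, sorted as CD207+ MHC II+ from digested ears of mice with the genotype HTR2A-/-, which lack the serotonin 2A receptor, and then exposed to imiquimod, an agonist of Toll-like receptor 7, together with an agent labelled a-CD40L for 24 hours. The 2 samples, both of this genotype and treatment, form 1 group and are called library 1 and library 2. Untreated and wild-type cells were not analysed here, so no value below is an effect of the receptor or of the treatment, and no test between conditions was made. The series title speaks of monocyte-derived cells, whereas the protocols describe a sort from ears. The labels do not give the age of the mice or the part of the gene that was deleted, and do not say whether the 2 samples came from separate animals.

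Library 1 held 69925160 counts and library 2 42264685 counts. Of 10 Langerhans cell markers 10 were above the cutoff defined below in both libraries, among them Cd207, the langerin gene used in the sort, at 739 CPM per kb of exon in library 1 and 691 in library 2. Keratinocyte RNA was present beside them, with Krt14 at 748 CPM per kb in library 1 and 2734 in library 2, above every Langerhans cell marker in library 2. CPM per kb scales a count by the total of its library (CPM) and by the length of the gene's exons in kb, and genes are compared on this scale throughout. Htr2a itself was at 0.196 CPM per kb in library 1 and 0.494 in library 2, percentile 44.5 and 33.4 of the silent genes below; without the deleted exons named, this does not check a partial deletion. The libraries stood apart from each other in keratinocyte RNA and in a gene of the Y chromosome. Basal keratinocyte markers (6 of 6 above the cutoff in both libraries) summed to 1244 CPM per kb in library 1 and 4229 in library 2, mostly from Krt14 and Krt5; their median was 33.5 and 29.0, and 4 of the 6 were lower in library 1. In addition, Ddx3y, on the Y chromosome, stood at 149 CPM (10409 counts) in library 1 against 0.0946 (4 counts) in library 2. RNA of male cells was thus present in library 1 and nearly absent from library 2. Sex cannot be told apart from any other difference between the libraries.

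Genes that are silent in skin still carried counts, and they set the level against which each collagen was read. The 1135 protein-coding olfactory receptor genes had a median of 0.221 CPM per kb in library 1 and 0.645 in library 2, and their 95th percentiles, 0.761 and 1.58 CPM per kb, were taken as the cutoff of each library. A gene was called above silent genes where it exceeded the cutoff in both libraries. Of the 44 collagen genes 10 were (22.7%), against 47.3% of the 21974 protein-coding genes and 2.20% of the olfactory receptor genes themselves. Taken by itself, library 1 had 18 collagen genes above its cutoff, where 56.2% of protein-coding genes were, and library 2 had the same 10, where 50.4% were. The remaining 26 genes were above it in neither library. On CPM without division by exon length, which favours long genes, 29 of the 44 collagens were called, where 51.0% of protein-coding genes were, so that the collagen share was then the higher one. The collagen median was 0.585 CPM per kb in library 1 and 0.951 in library 2, against 1.10 and 1.60 for all protein-coding genes. Both collagen medians lay below those of all protein-coding genes and between the median and the cutoff of the silent genes.

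**Figure D1:**
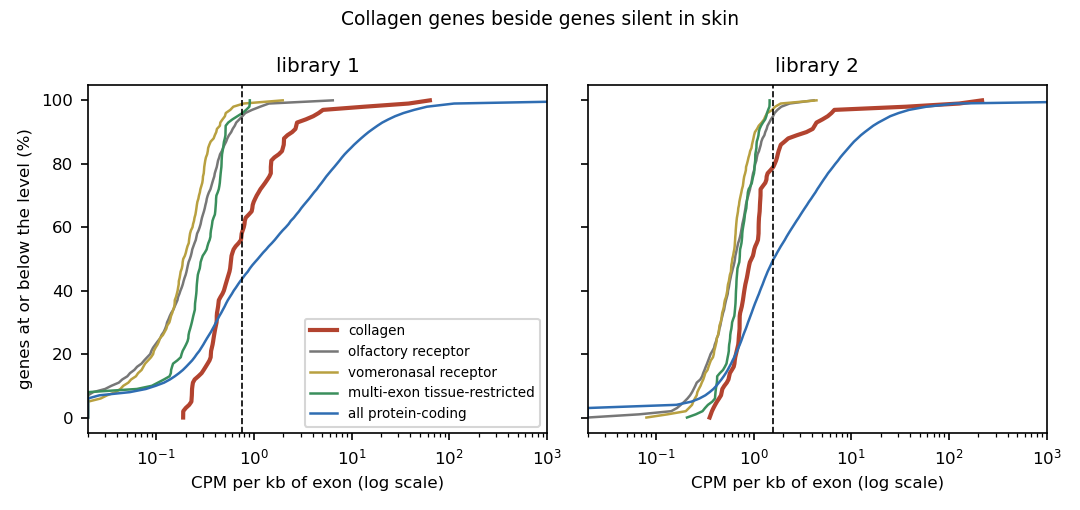
Share of genes (%, vertical axis) at or below a given level (CPM per kb of exon, log scale) in each library, for 44 collagen genes, 1135 olfactory receptor genes, 331 vomeronasal receptor genes, 54 multi-exon genes restricted to other tissues, and all 21974 protein-coding genes; values under 0.02 are drawn at 0.02. The dashed line is the olfactory receptor cutoff of that library (0.761 and 1.58 CPM per kb), and most of the collagen curve lies to its left in both libraries.

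The family is held together by its coding sequence. In the longest complete coding transcript of each gene, codons that begin with GG, which encode glycine, return as the first of 3 codons, and such units follow each other in unbroken runs. The start of the longest run is shown for the leading keratinocyte collagens, for the fibrillar gene that differed most between the libraries and for the leading type IV chain, with the first codon of each unit, a glycine codon, in capitals; glycine codons at other places of a unit stay in lower case. The sequences are GENCODE M21 transcripts (GRCm38), read 5′ to 3′ on the coding strand, 15 units each.
Col17a1, chromosome 19, codons 651 to 695: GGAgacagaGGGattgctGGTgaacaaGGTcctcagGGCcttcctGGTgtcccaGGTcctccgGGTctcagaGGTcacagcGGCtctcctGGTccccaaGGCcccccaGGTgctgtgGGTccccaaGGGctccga
Col7a1, chromosome 9, codons 2518 to 2562: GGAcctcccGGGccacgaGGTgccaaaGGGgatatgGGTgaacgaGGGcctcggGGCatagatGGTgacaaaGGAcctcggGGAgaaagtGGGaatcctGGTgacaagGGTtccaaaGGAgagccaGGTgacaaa
Col3a1, chromosome 1, codons 164 to 208: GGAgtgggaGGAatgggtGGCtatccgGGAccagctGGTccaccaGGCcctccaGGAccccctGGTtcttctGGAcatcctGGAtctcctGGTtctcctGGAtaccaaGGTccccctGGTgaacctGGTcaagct
Col4a1, chromosome 8, codons 43 to 87: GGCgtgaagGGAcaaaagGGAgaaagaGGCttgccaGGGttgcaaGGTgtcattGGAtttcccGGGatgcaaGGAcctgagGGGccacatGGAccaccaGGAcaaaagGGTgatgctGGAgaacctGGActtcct

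The length of the longest unbroken run set the fibrillar class apart, while the other classes overlapped. The 11 fibrillar genes had a longest run of 216 to 344 units, with Col3a1 at 344 and the short ones Col24a1 and Col27a1 at 216 and 217. The 8 basement membrane genes reached 30 to 66 units and were interrupted into 13 to 27 runs. Col17a1 had 55 units in its longest run and 22 runs in all, which covered 39.4% of its 1470 codons, and Col7a1 had 75 units and 21 runs over 48.3% of 2944 codons. The fibril-associated gene Col12a1 had 8.12% of its 3065 codons in runs, the lowest share of the family, since most of that protein is not collagenous. Both Col12a1 and Col4a1, at 8.12% and 78.9% of codons in runs, were above silent genes in both libraries.

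**Figure D2:**
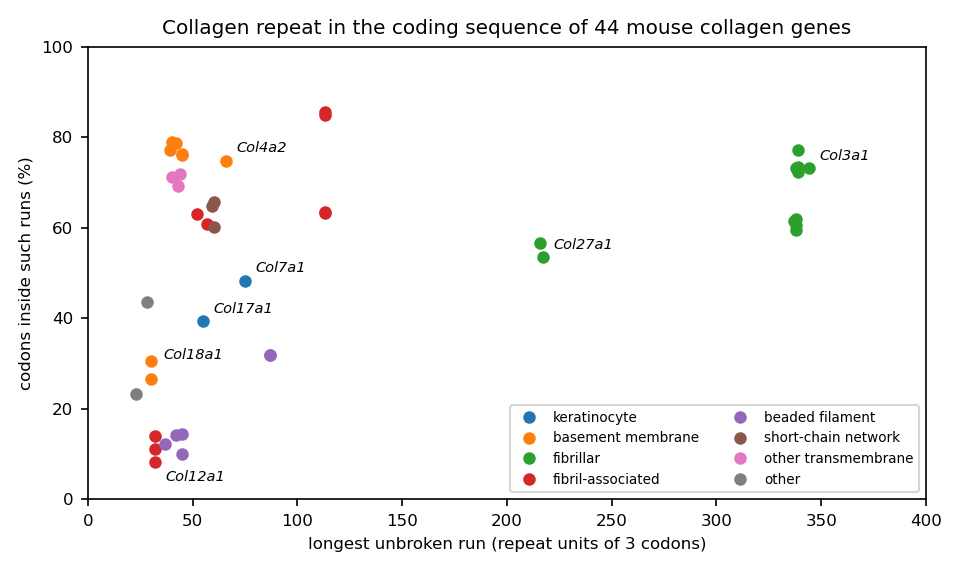
Each point is 1 of the 44 mouse collagen genes, placed by its longest unbroken run of glycine-first units of 3 codons (horizontal axis) and by the share of its codons inside runs of at least 3 units (vertical axis, %); colours are the 8 classes. The fibrillar genes lie at 216 to 344 units, and the other classes at 113 or fewer.

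Col17a1, the transmembrane collagen of the hemidesmosome that fastens basal keratinocytes to the basement membrane, stood alone at the top. The gene (ENSMUSG00000025064, chromosome 19, 47646344 to 47692094, minus strand, 6011 bp of exon) held 26594 counts of library 1, a level of 63.3 CPM per kb (95% Poisson interval 62.5 to 64.0). Library 2 held 55400, a level of 218 CPM per kb (216 to 220), and the mean was 141 ± 109 (SD, n = 2). It lay at percentile 98.1 and 99.5 of protein-coding genes, and at 287 and 338 times the median silent gene. It was 11.7 times the next collagen in library 1, which was Col1a1, and 31.1 times the next in library 2, which was Col23a1. Of the summed level of all 44 genes, Col17a1 made up 59.2% in library 1 and 78.7% in library 2.

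Col7a1, which encodes the anchoring fibrils below the basement membrane, was far lower but above silent genes in both libraries. It (chromosome 9, 108953586 to 108984875, plus strand) was at 2.04 CPM per kb in library 1 (1.93 to 2.14) and 4.41 in library 2 (4.21 to 4.61), or 3.22 ± 1.68 (SD, n = 2). The ratio of Col17a1 to Col7a1 per kb was 31.1 (95% exact binomial interval 29.5 to 32.8) in library 1 and 49.5 (47.3 to 51.8) in library 2. Both keratinocyte collagens were lower in library 1, with ratios of library 1 to library 2 of 0.290 (0.286 to 0.294) for Col17a1 and 0.462 (0.431 to 0.495) for Col7a1. Of the 6 basal keratinocyte markers 4 were lower and 2 higher in library 1, with ratios from 0.222 (Cdh3) to 1.26 (Dst). The keratin genes Krt14 and Krt5, with Krt5 at 411 CPM per kb in library 1 and 1392 in library 2, had ratios of 0.274 and 0.295. The part of other skin cells in these levels was not tested, and in bulk samples fewer cells of a type and less RNA per cell cannot be told apart.

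The window before the start of Col17a1 is shown because this gene dominates the family, and those of Col23a1 and Col18a1 (the lowest ratios of library 1 to library 2) and Col3a1 (the highest) because these genes differed most between the libraries. They are RefSeq windows (GRCm38.p6), cut where the first annotated GENCODE exon begins and read 5′ to 3′ on the strand of the gene. Capitals mark the TATA box string TATAAA, the CCAAT box string CCAAT and the GC box string GGGCGG, on either strand, with no overlap between motifs in these windows.
Col17a1, chr19:47692095-47692292, minus strand: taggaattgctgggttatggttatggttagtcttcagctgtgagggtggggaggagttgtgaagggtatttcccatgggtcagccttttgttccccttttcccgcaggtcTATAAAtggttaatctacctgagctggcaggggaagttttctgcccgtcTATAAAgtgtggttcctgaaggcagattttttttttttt
Col23a1, chr11:51289670-51289919, plus strand: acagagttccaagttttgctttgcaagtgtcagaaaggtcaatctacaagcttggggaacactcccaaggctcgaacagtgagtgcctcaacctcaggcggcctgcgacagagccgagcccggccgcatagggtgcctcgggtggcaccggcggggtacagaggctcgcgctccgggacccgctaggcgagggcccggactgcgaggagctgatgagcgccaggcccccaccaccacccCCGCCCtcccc
Col18a1, chr10:77166549-77166780, minus strand: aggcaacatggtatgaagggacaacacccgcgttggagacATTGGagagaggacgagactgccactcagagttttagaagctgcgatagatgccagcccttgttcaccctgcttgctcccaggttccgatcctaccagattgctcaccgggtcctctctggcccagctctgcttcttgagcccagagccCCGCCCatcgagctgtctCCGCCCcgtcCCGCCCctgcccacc
Col3a1, chr1:45311288-45311537, plus strand: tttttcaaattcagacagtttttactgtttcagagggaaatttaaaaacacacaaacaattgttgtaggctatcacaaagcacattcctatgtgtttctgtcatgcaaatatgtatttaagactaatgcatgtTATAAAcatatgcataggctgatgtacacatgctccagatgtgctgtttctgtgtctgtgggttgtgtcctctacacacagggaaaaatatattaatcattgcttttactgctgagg

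The Col17a1 window held TATAAA 2 times, 39 and 88 bases before the GENCODE start, and none of the other motifs. Col3a1 held TATAAA 117 bases before its start, Col23a1 a single GGGCGG on the reverse strand and Col18a1 a CCAAT and 3 GGGCGG matches on the reverse strand. In the 250 bases before the start, TATAAA on either strand was in 12.4% of 32851 windows of all genes and in 5 of 38 windows of the 35 collagen genes that the table holds. CCAAT was in 33.8% of all windows and 13 of the 38, and GGGCGG in 32.7% and 22 of the 38. A match is a string of letters and does not show that a factor binds there.

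**Figure D3:**
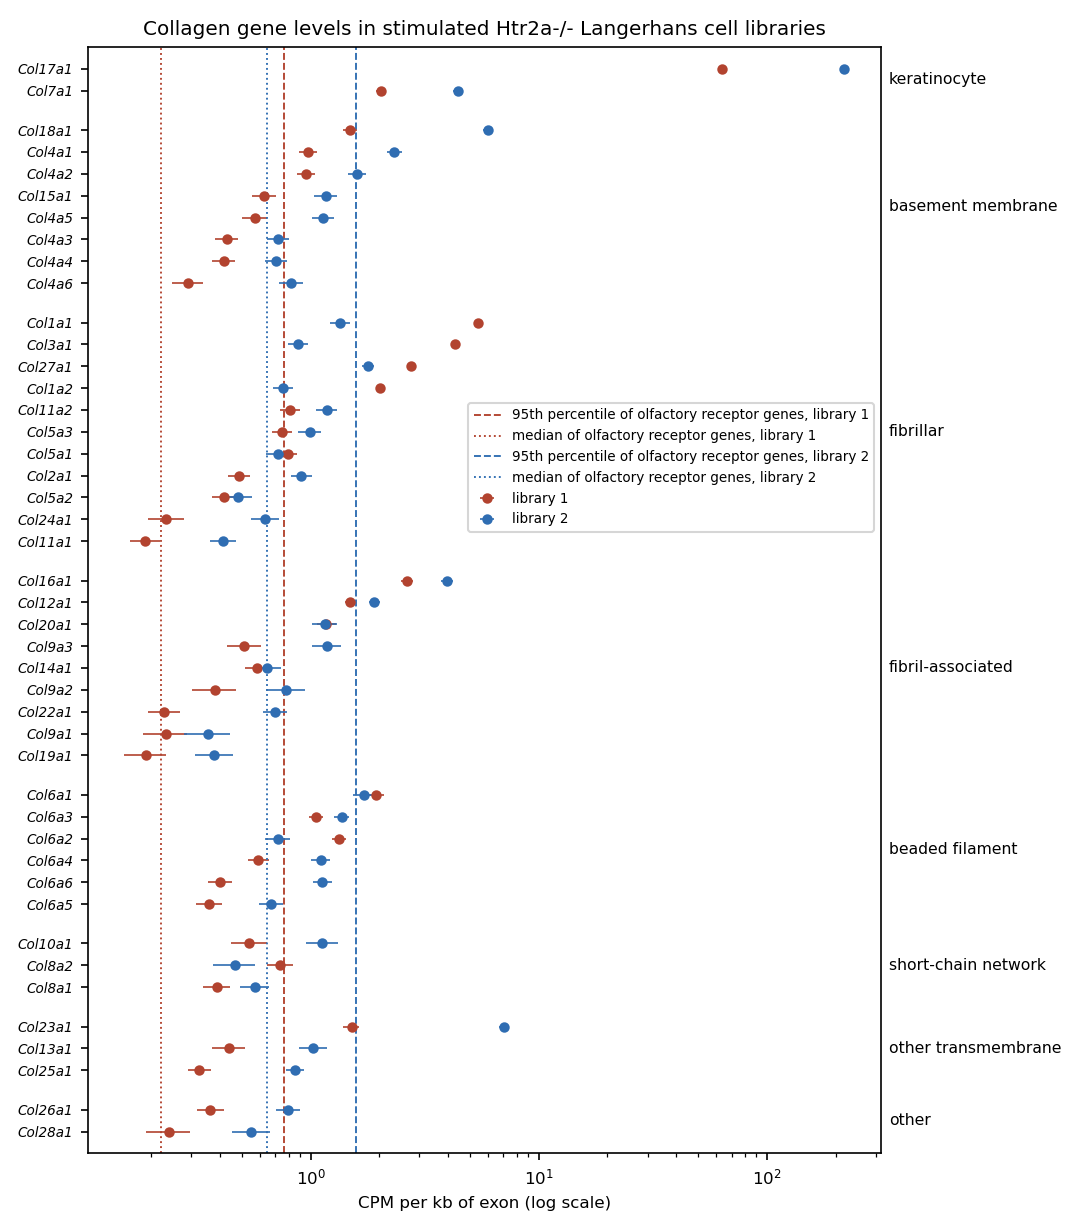
Level of each collagen gene in library 1 (red) and library 2 (blue), in CPM per kb of exon on a log scale, with 95% Poisson intervals for counting error, grouped by class. Dotted and dashed lines are the median and 95th percentile of the olfactory receptor genes in each library; Col17a1 at 63.3 and 218 lies apart from all other members, which reach at most 5.42 in library 1 and 7.02 in library 2.

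Of the 8 basement membrane collagens 3 were above silent genes in both libraries, where 47.3% of protein-coding genes were. That share also stands beside the counts of the classes and marker lists below. Some class counts changed with the percentile and with division by length, as given at the end. Col18a1, a heparan sulfate collagen that is the source of endostatin, led them (chromosome 10, 77052178 to 77166548, minus strand) at 1.49 CPM per kb in library 1 (1.38 to 1.60) and 5.98 in library 2 (5.70 to 6.26). The type IV chains Col4a1 and Col4a2, which build the network of nearly all basement membranes, were at 0.975 and 0.955 CPM per kb in library 1 and at 2.33 and 1.60 in library 2. The counting interval of Col4a2 in library 2, 1.45 to 1.75, spanned the cutoff of 1.58. The other 5 genes, Col15a1, Col4a3, Col4a4, Col4a5 and Col4a6, were below the cutoff in both libraries. Col15a1, the closest relative of Col18a1, was at 0.626 CPM per kb in library 1 and 1.16 in library 2, so Col18a1 exceeded it 2.38 times (2.07 to 2.74) and 5.14 times (4.56 to 5.82). All 8 genes were lower in library 1 than in library 2, with ratios of 0.249 to 0.598 by total counts and the same direction under the 2 other scalings described below; once the median silent level was subtracted, Col4a3 and Col4a4 were higher in library 1.

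The 6 type IV genes lie in head-to-head pairs, and the partners of a pair had similar levels in part. Col4a1 and Col4a2 on chromosome 8 start at 11312826 and 11312805 on opposite strands and overlap by 22 bases, so reads in that overlap cannot be assigned without strand. Their ratio per kb was 1.02 (0.897 to 1.16) in library 1 and 1.46 (1.29 to 1.64) in library 2. Col4a3 and Col4a4, whose chains act in kidney and other specialised basement membranes, start 72 bases apart on chromosome 1 and had ratios of 1.03 and 1.02, with counting intervals that included 1. Both were within the range of silent genes, at 0.429 and 0.416 CPM per kb in library 1 and 0.719 and 0.707 in library 2. Col4a5 and Col4a6, whose chains occur in the epidermal basement membrane, start 1309 bases apart on the X chromosome, and Col4a5 exceeded Col4a6 1.96 times (1.60 to 2.39) and 1.38 times (1.17 to 1.63).

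The fibrillar collagens held the 3 genes furthest toward library 1. Of 11 genes, 6 were above the cutoff in library 1, where 56.2% of protein-coding genes were, so their share there was near that of all genes. In library 2 only 1 was, Col27a1, where 50.4% of protein-coding genes were. Col1a1 and Col1a2, the chains of collagen I and the bulk of the dermis, were at 5.42 (5.21 to 5.64) and 2.02 (1.93 to 2.12) CPM per kb in library 1 and at 1.35 (1.22 to 1.49) and 0.756 (0.683 to 0.834) in library 2. Col3a1, the collagen that accompanies collagen I in skin, was at 4.27 CPM per kb (4.12 to 4.43) in library 1 and 0.882 (0.794 to 0.977) in library 2. In library 1 all of these lay above the cutoff by more than counting error, and in library 2 below it by more than counting error. Per kb their order, Col1a1 over Col3a1 over Col1a2, was the same in both libraries, but it rests on the division by exon length. By CPM, Col3a1, Col1a1 and Col1a2 were at 42.0, 35.6 and 25.1 in library 1. In library 2 that order was reversed, at 8.66, 8.85 and 9.39. The call in library 2 depends on the setting too. By CPM all 3 exceeded the olfactory receptor cutoff of 5.52 in library 2. Per kb, Col1a1 exceeded the 95th percentile of vomeronasal receptor genes there, 1.32 CPM per kb.

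The ratio of library 1 to library 2 was 4.85 (4.34 to 5.42) for Col3a1, 4.02 (3.61 to 4.50) for Col1a1 and 2.67 (2.40 to 2.99) for Col1a2. Col1a1 exceeded Col1a2 2.68 times per kb (2.52 to 2.85) in library 1 and 1.78 times (1.54 to 2.06) in library 2, where both lay below the olfactory receptor cutoff per kb. By CPM Col1a2 was the higher in library 2, at 9.39 against 8.85. Col27a1, a fibrillar collagen known from cartilage, was at 2.76 CPM per kb in library 1 (2.66 to 2.87) and 1.79 in library 2 (1.68 to 1.91). Col5a1 and Col11a2, minor chains that regulate fibril size, passed the cutoff in library 1 alone at 0.797 and 0.811 CPM per kb, with counting intervals that spanned it. Col5a3 at 0.750 lay just outside. In library 2 Col5a1 was at 0.722 and Col11a2 at 1.18 CPM per kb. Col11a2 was thus the higher in library 2, where the cutoff was also higher. Col2a1, the main collagen of cartilage, Col11a1, Col24a1 and Col5a2 lay below the cutoff in both libraries, at 0.189 to 0.487 CPM per kb in library 1 and 0.414 to 0.911 in library 2.

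Fibroblast genes other than collagens gave a mixed picture beside these values. Of 10 markers, Fn1 and Vim were above silent genes in both libraries, Pdgfrb and Lum in library 1 alone (Pdgfrb at the lower level there, 0.862 CPM per kb against 1.48 in library 2) and Fbln1 in library 2 alone. The list summed to 798 CPM per kb in library 1 and 278 in library 2, of which Vim, which Langerhans cells also express, made up 783 and 266. Fn1 (fibronectin) was at 10.5 CPM per kb in library 1 and 2.13 in library 2, and Lum (lumican) at 1.49 and 0.300, so both were higher in library 1. Across the list, however, 3 markers were higher and 7 lower in library 1, 5 of them at least 2-fold, with a median ratio of 0.441. The fibroblast genes Pdgfra, at 0.538 and 0.767 CPM per kb, and Dcn, at 0.372 and 1.26, were below the cutoff in both libraries, and no marker of the list was at 0 counts. Of 9 cartilage markers, Sox9, which keratinocyte stem cells also express, and Chad were above silent genes in both libraries and Acan in library 1 alone; Matn3, Cnmd and Snorc had 0 counts in library 1. The part of fibroblasts in the fibrillar levels was not tested.

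Among the 9 fibril-associated collagens, which coat fibrils or link them to other matrix, Col16a1 and Col12a1 were above silent genes in both libraries. Col16a1 (chromosome 4, 130047840 to 130099283, plus strand) was at 2.65 CPM per kb in library 1 (2.50 to 2.80) and 3.97 in library 2 (3.74 to 4.21). Col12a1 was at 1.49 and 1.90 CPM per kb. Col20a1 passed in library 1 alone, at 1.17, and was at 1.15 in library 2, nearly equal levels on different sides of 2 different cutoffs. The cartilage genes Col9a1, Col9a2 and Col9a3, with Col14a1, Col19a1 and Col22a1, lay below the cutoff in both libraries, at 0.189 to 0.579 CPM per kb in library 1 and 0.355 to 1.18 in library 2.

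Of the 6 beaded filament collagens, the chains of collagen VI that surround cells in most connective tissue, Col6a1 was above silent genes in both libraries, at 1.93 CPM per kb in library 1 and 1.72 in library 2 (1.53 to 1.92, an interval that spans the cutoff). Col6a2 and Col6a3 passed in library 1 alone, at 1.33 and 1.06 CPM per kb, and were at 0.719 and 1.37 in library 2. Col6a1 exceeded its partner Col6a2 1.45 times per kb (1.30 to 1.61) in library 1 and 2.39 times (2.02 to 2.83) in library 2. By CPM Col6a1 was the lower in library 1, at 8.44 against 11.1, and the higher in library 2, at 7.52 against 5.99. Col6a4, Col6a5 and Col6a6 were below the cutoff in both libraries.

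Col23a1, a transmembrane collagen that furin sheds from the cell surface, was the second collagen in library 2 but had 8 other members above it in library 1. It (chromosome 11, 51289920 to 51583918, plus strand) was at 1.51 CPM per kb in library 1 (1.39 to 1.64) and 7.02 in library 2 (6.69 to 7.36), or 4.27 ± 3.90 (SD, n = 2). Its ratio of library 1 to library 2, 0.215 (0.196 to 0.236), was the lowest of the family. The other 2 transmembrane genes, Col13a1 and Col25a1, were below the cutoff in both libraries, as were the network-forming Col8a1, Col8a2 and Col10a1 and the remaining Col26a1 and Col28a1. Of these 7 genes, the highest in library 1 was Col8a2 at 0.736 CPM per kb, just outside the cutoff, and in library 2 Col10a1 at 1.13.

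Between the libraries, 35 of the 44 collagens were lower and 9 higher in library 1 by CPM, while the median ratio of library 1 to library 2 was 0.538 for collagens and 0.730 for protein-coding genes. On the log2 scale the median was -0.90 for collagens, -0.45 for protein-coding genes and -1.41 for olfactory receptor genes, so the silent level itself differed between the libraries and levels near it share that difference. At least 2-fold higher in library 1 were 3 collagens (Col1a1, Col1a2 and Col3a1), where 6.18% of 20280 protein-coding genes with counts in both libraries were. At least 2-fold lower were 17, where 31.2% were. These splits depend on the scaling, which moves every gene by the same factor. The median log2 ratio of protein-coding genes became 0.08 with TMM factors and 0.21 with DESeq2 size factors. With TMM 14 collagens were higher and 30 lower in library 1, 6 and 4 of them at least 2-fold, where 15.7% and 16.9% of protein-coding genes were. With DESeq2 size factors 18 were higher and 26 lower, 6 and 3 of them at least 2-fold, where 19.8% and 14.6% were. Col1a1, Col1a2, Col3a1, Col27a1 and Col6a2 were higher, and Col17a1, Col18a1, Col23a1, Col7a1 and Col4a1 lower, in library 1 under all 3 scalings, whereas Col12a1 and Col6a3 turned to higher with TMM and with DESeq2 and Col16a1 with DESeq2.

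**Figure D4:**
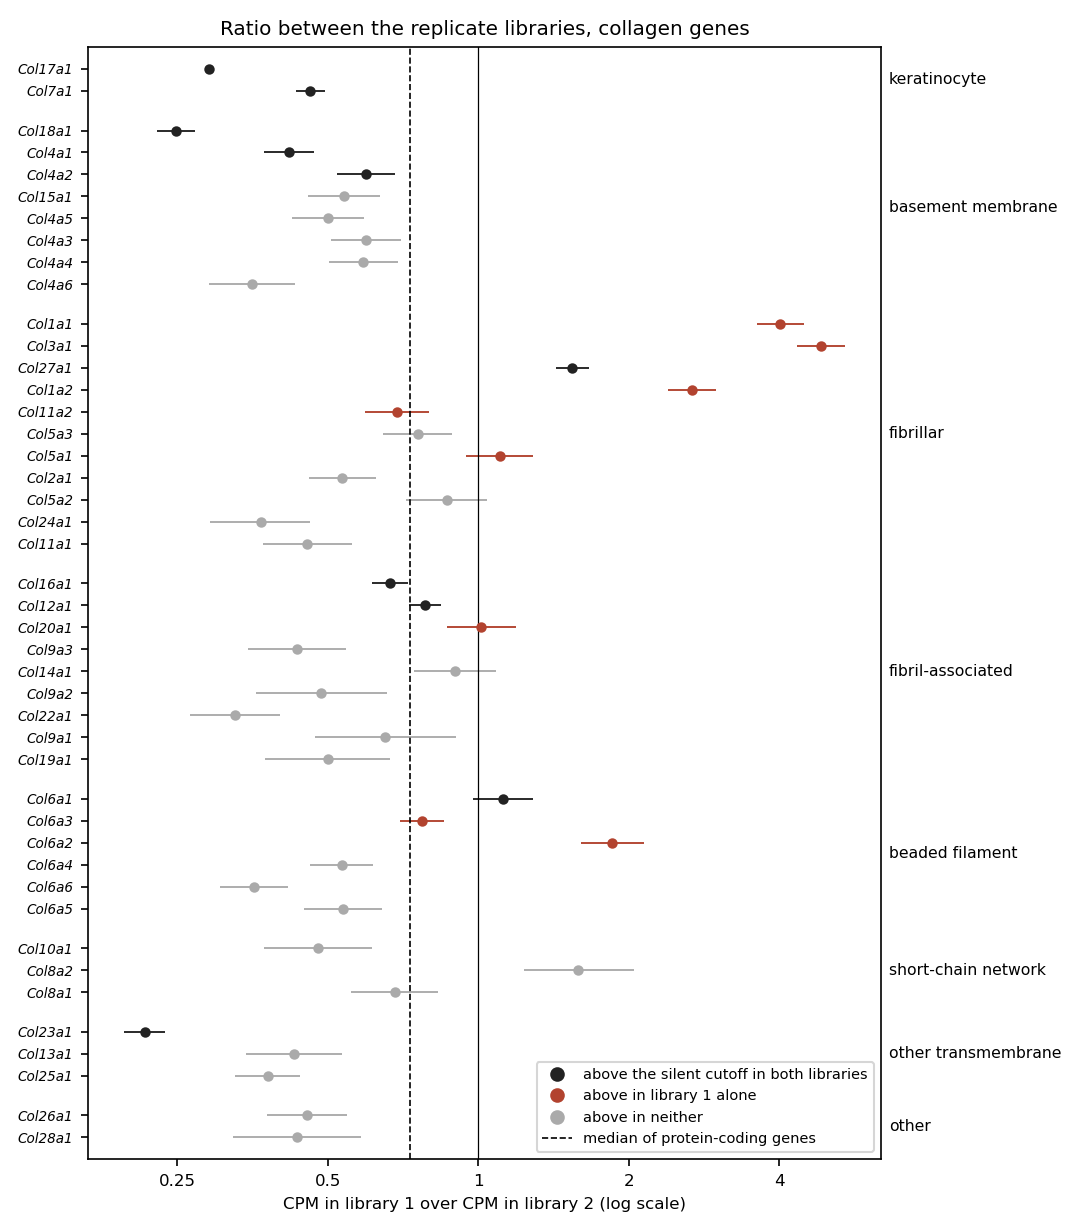
Ratio of CPM in library 1 to CPM in library 2 for each collagen gene (log scale), with 95% exact binomial intervals for counting error; colours show whether the gene was above silent genes in both libraries, in library 1 alone or in neither. The dashed line is the median of protein-coding genes (0.730); Col1a1, Col1a2 and Col3a1 lie at 2.67 to 4.85, and Col17a1, Col18a1 and Col23a1 at 0.215 to 0.290.

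Collagen chains must be hydroxylated, folded, exported, trimmed and crosslinked, and the genes for these steps were read in the same way. Of 45 genes in 5 lists, 22 were above silent genes in both libraries, beside the 47.3% of all protein-coding genes. By step the counts were 11 of 15 for hydroxylation and glycosylation of proline and lysine, 5 of 7 for folding and export, 2 of 8 for propeptide processing, 1 of 5 for crosslinking and 3 of 10 for receptors. In library 1 and library 2 taken singly they were, in the same order, 12 and 11, 5 and 5, 2 and 2, 3 and 1, and 5 and 4. Of protein-coding genes 56.2% and 50.4% were. The lists are small, and a difference between steps was not tested.

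Some modifying enzymes were abundant, among them P4hb and Ppib, which have general roles in the endoplasmic reticulum. P4hb, the disulfide isomerase that is also the beta subunit of prolyl 4-hydroxylase, was at 108 CPM per kb in library 1 and 132 in library 2. Ppib, a proline isomerase, was at 36.0 and 33.7, and P4ha1, the catalytic subunit of prolyl 4-hydroxylase, at 18.9 and 14.2. Colgalt2 passed in library 1 alone, and P4ha3, P3h3 and Plod2, which hydroxylates telopeptide lysines for crosslinking, were below the cutoff in both libraries. The export gene Mia3, which encodes the cargo receptor TANGO1, was at 24.2 and 22.6 CPM per kb, and Mia2 at 11.2 and 8.70. Serpinh1, the chaperone HSP47 that is specific for collagen, was at 1.28 CPM per kb in library 1 and 6.06 in library 2, a ratio of 0.210. Of the 7 folding and export genes 4 were higher and 3 lower in library 1, with a median ratio of 1.07. Fkbp10 and Fkbp14 were below the cutoff in both libraries.

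Of the genes for steps on secreted procollagen, 2 of 8 for propeptide processing and 1 of 5 for crosslinking were above silent genes in both libraries. The share of protein-coding genes was 47.3%. Bmp1, which removes the C-terminal propeptide, was at 0.776 CPM per kb in library 1 and 2.01 in library 2, and Adamts14, a protease of the N-terminal propeptide, at 0.886 and 2.09. Tll1, Tll2, Pcolce, Pcolce2, Adamts2 and Adamts3 were below the cutoff in both libraries, at 0.187 to 0.680 CPM per kb in library 1 and 0.575 to 1.13 in library 2. Of the lysyl oxidases Loxl3 passed in both libraries, at 2.72 and 1.99 CPM per kb, Loxl2 and Loxl4 in library 1 alone, and Lox and Loxl1 in neither.

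Among receptors for collagen, Itgb1, the beta chain shared by many integrins, was at 71.0 CPM per kb in library 1 and 78.0 in library 2. Its collagen-binding partner Itga2 was at 1.62 and 12.5, and the epithelial receptor kinase gene Ddr1 at 4.49 and 14.0. Lair1, an inhibitory collagen receptor of leukocytes, was higher in library 1, at 5.62 CPM per kb in library 1 and 0.937 in library 2, below the cutoff there. The leukocyte gene Ptprc, at 33.3 and 7.73 CPM per kb, was also higher in library 1, with the highest ratio of the 10 Langerhans cell markers (4.31). Of that list 8 genes were higher and 2 lower in library 1, with a median ratio of 1.78. Ddr2 passed in library 2 alone, Itga11 in library 1 alone, and Itga1, Itga10, Gp6 and Mrc2 in neither.

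Of the partners of Col17a1 in the hemidesmosome and its laminin, 7 of the 7 genes read were above silent genes in both libraries, beside 47.3% of all protein-coding genes. The cytolinker genes Plec, at 65.9 CPM per kb in library 1 and 57.6 in library 2, and Dst, at 27.7 and 22.0, were near equal between the libraries. The integrin gene Itgb4 was at 11.3 and 46.8 CPM per kb and Itga6 at 14.9 and 26.3, and the laminin gene Lamb3 at 5.18 and 15.6. The ratio of library 1 to library 2 was 0.242 for Itgb4, 0.331 for Lamb3, 1.14 for Plec and 1.26 for Dst, beside 0.290 for Col17a1. Of the 7 genes 5 were lower in library 1, 3 of them at least 2-fold, and 2 were higher, with a median ratio of 0.534. A link of these ratios to that of Col17a1 was not tested. Of 11 other basement membrane genes 5 were above silent genes in both libraries, led by the heparan sulfate proteoglycan gene Agrn (4.52 and 10.8 CPM per kb) and the laminin genes Lamc1 (3.45 and 9.24) and Lama5 (2.56 and 7.96). Lamb2 and Hspg2 also passed in both, Nid2 in library 1 alone, and Lama1, Lama2, Lama4, Lamb1 and Nid1 in neither.

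**Figure D5:**
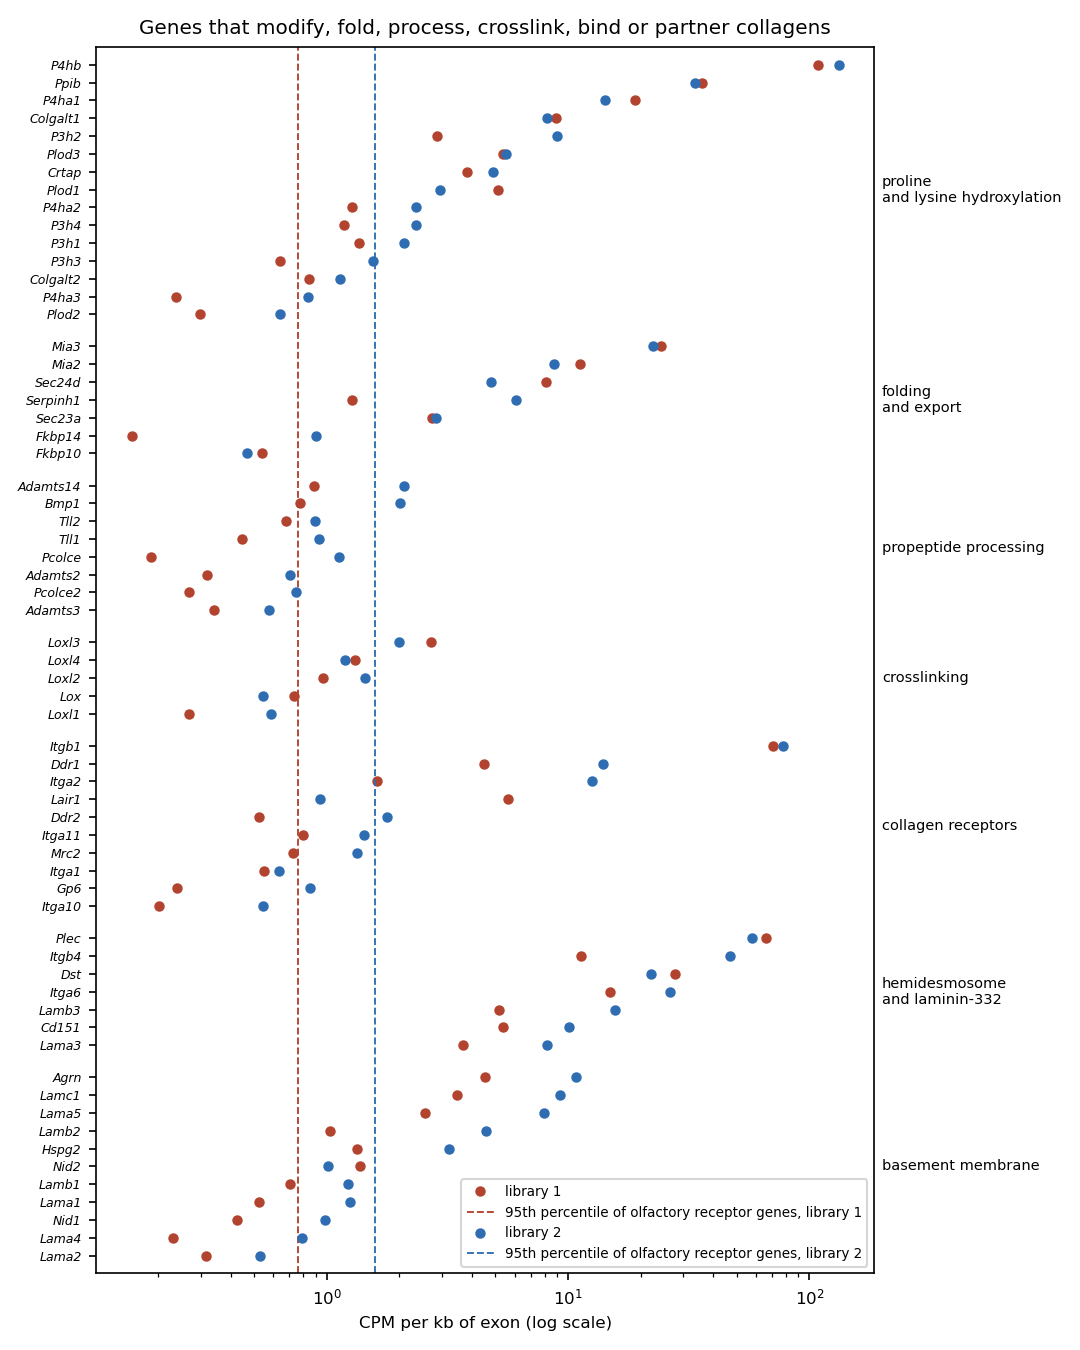
Levels (CPM per kb of exon, log scale) of the genes that modify, fold, process, crosslink or bind collagens and of the partners of collagens in hemidesmosomes and basement membranes, in library 1 (red) and library 2 (blue), with the olfactory receptor cutoff of each library as a dashed line. All 7 hemidesmosome and laminin-332 genes shown lie to the right of both lines, while 6 of the 8 propeptide processing genes lie to the left of their line in each library.

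Other cells of the ear were read from marker lists chosen with earlier results of these data known. Of all protein-coding genes 47.3% were above silent genes in both libraries. Of 6 suprabasal keratinocyte markers 4 were above silent genes in both libraries, with a summed level of 186 CPM per kb in library 1 and 629 in library 2. The counts were 1 of 8 for endothelial cells (Pecam1), 2 of 6 for pericytes and smooth muscle (Acta2 and Notch3), 2 of 6 for Schwann cells (Mbp and Pmp22), 1 of 6 for melanocytes (Mitf) and 2 of 6 for skeletal muscle (Tnni2 and Mb). The melanocyte gene Tyrp1 had 0 counts in library 1. Pecam1 is also made by leukocytes, and Dst stands in both the basal keratinocyte and the hemidesmosome list. Endothelial markers summed to 13.7 CPM per kb in library 1 and 7.69 in library 2, of which Pecam1 made up 8.37 and 1.96. Of these 8 markers 3 were higher and 5 lower in library 1, with a median ratio of 0.866. Pericyte and smooth muscle markers summed to 4.92 and 10.3 CPM per kb. The Langerhans cell markers summed to 8631 and 4973 CPM per kb, beside 107 and 277 for all collagens together. In counts, the 44 genes took 0.0743% of library 1 and 0.177% of library 2.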

How the data were processed

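The authors deposited 1 table of raw, unscaled counts by Ensembl gene identifier, with a column for either library. Per the submitters' processing notes Trimmomatic, HISAT2, SAMtools, StringTie and GRCm38 were used; not given in the sources used here are versions, the annotation, strand handling and what 1 count stands for, so antisense and overlapping genes cannot be told apart. Per the labels' protocols, 10 to 70 ng of total RNA entered a stranded low-input kit. One column carries the replicate number 2 (library 2); the other carries none (library 1). The 2 rows without an identifier, 1 blank and 1 of totals, were left out, and 55227 of 55487 rows matched GENCODE M21.

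Counts were scaled to CPM by library total and divided by the union of a gene's exons in kb. Intervals (95%, exact Poisson or Clopper-Pearson) cover counting error only and treat counts as independent; a count of 0 allows up to 3 counts, 0.0429 CPM in library 1 and 0.0710 in library 2. No test was made, since 1 group holds no contrast. TMM factors came from edgeR 4.0.16 and size factors from DESeq2 1.42.0 (R 4.3.3); the rest ran in Python 3.11.15 with SciPy 1.17.1. The silent cutoff was the 95th percentile of olfactory receptor genes in each library; the alternatives were other silent sets, the 99th percentile, no length division, a minimum of 10 counts, other scalings and leaving out a library. Calls and intervals were tested on simulated data. Exons of 13 collagen genes overlap another annotated gene, over at most 6.07% of their length. Members, classes and lists were chosen with earlier results of these data known. Members above the cutoff in at least 1 library, or leading their class, are given by value and the others by count and range; of pathway genes, the highest of each list and those not called are named. Ptprc, Lum, Fn1, Pdgfra, Dcn, Serpinh1, Lair1, Itgb4 and Lamb3 were named after their values were seen. One gene of the partner lists is not reported here.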

Additional observations from a re-analysis of the deposited data

How the results depend on the processing

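Of the 44 collagens 10 were above silent genes in both libraries; 47.3% of protein-coding genes were. The number was 12 (52.7%) with vomeronasal receptor genes and 11 (50.6%) with 54 multi-exon tissue-restricted genes as the silent set, and 10 (47.3%) with a minimum of 10 counts per library. At the 99th percentile, which 38.9% of protein-coding genes passed, it was 5 (Col17a1, Col23a1, Col18a1, Col16a1 and Col7a1), so Col27a1, Col6a1, Col12a1, Col4a1 and Col4a2 depend on the percentile. Without division by length it was 29, against 51.0% of protein-coding genes, so the order of the shares turned; longer genes stand higher on that scale by construction. Leaving out 1 library gave 10 to 18, with 10 from library 2 alone and 18 from library 1 alone. Leaving out the 13 members whose exons overlap another gene left 7 called, because Col7a1, Col4a1 and Col4a2 are among those 13. No call changed, and the matching share of protein-coding genes was not computed. The 22 pathway genes ranged from 15 to 30 over the same alternatives. Some class counts moved as well. Of the 8 basement membrane collagens 3 were called, but 1 at the 99th percentile and 7 without division by length. In the same order the counts were 1, 0 and 8 of 11 fibrillar genes and 1, 0 and 6 of 6 beaded filament genes. Both keratinocyte collagens were called in each of these settings. Collagens at least 2-fold higher in library 1 numbered 3 with total counts, 6 with TMM, 6 with DESeq2 size factors and 16 after subtraction of the median silent level, where a gene at or under that level in 1 library counts as 2-fold; those at least 2-fold lower numbered 17, 4, 3 and 9. The shares of protein-coding genes in the same order were 6.18%, 15.7%, 19.8% and 21.7% higher and 31.2%, 16.9%, 14.6% and 19.0% lower. The scaling factor is common to all genes and shifts every ratio. The 20 collagens with a 2-fold difference kept their direction with TMM and DESeq2 size factors. After subtraction 3 of them turned from lower to higher in library 1, Col9a2 to a ratio of 1.17 and Col24a1 and Col28a1 because they stood above the silent median in library 1 alone. Of the other 24, 12 turned in the same way, and 1 gene of either group was at or under that median in both libraries. No paired analysis was possible because both samples belong to 1 group. Depth limits the calls of Col6a1 and Col4a2 in library 2 and of Col11a2, Col5a1, Col5a3 and Col8a2 in library 1, whose counting intervals span the cutoff.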
